A study of Homo sapiens with 2 samples.

Results

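Molecular chaperones and heat shock proteins were examined in enzalutamide-sensitive and enzalutamide-resistant C4-2B prostate cancer cells. The genes were chosen by symbol alone. They comprise the HSP90, HSP70, HSP110, small heat shock protein and mitochondrial chaperonin genes, the J-domain (DNAJA, DNAJB and DNAJC) genes, the subunits of the cytosolic chaperonin, the BAG genes, the co-chaperones STIP1, AHSA1, PTGES3 and CDC37, and the factors HSF1 and HSF2. The choice gave 97 of the 25343 rows of the deposited table, of which 81 averaged at least 1 CPM (counts per 1e+06 reads, normalized) over both libraries. RNA-seq was available for 1 library of the sensitive line, C4-2B Con, kept in DMSO, and 1 of C4-2B ENZR, the resistant line, which was kept in medium with enzalutamide at 20 µM. Enzalutamide is an antiandrogen. The sensitive line grew in RPMI medium with 10% fetal bovine serum in parallel. C4-2B is a castration-resistant subline that descends from LNCaP, a human prostate cancer line. Both sample titles end in shC, a suffix the labels leave unexplained. The sources used here do not say how the resistant line was derived, whether it is a single clone or whether drug was present at harvest.

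Chaperones bind proteins that are not yet folded or have lost their fold. In the cytosol, J-domain proteins deliver clients to HSP70, which folds them through cycles of ATP hydrolysis, and the adaptor STIP1 passes steroid receptors on to HSP90 for their final ligand-binding state. The endoplasmic reticulum (ER) and the mitochondria each have HSP70 and J-domain proteins of their own, and the cytosolic chaperonin folds tubulin and actin inside a closed chamber. Heat shock factor 1 induces many of these genes when unfolded proteins accumulate.

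The libraries held 21024484 reads in genes for Con and 23479051 for ENZR. With 1 library per group there is no replicate, no test of the conditions is possible, and the spread between cultures is unknown. Each ratio is therefore given with an exact 95% interval of the read counts, called the counting interval, which covers counting error only. All 14 prostate luminal markers examined reached 1 CPM, while KLK3, which encodes prostate-specific antigen, was measured at 1428 (Con) and 3.72 CPM (ENZR). Of 14 markers of other cell types, 4 reached 1 CPM. These were COL1A1 (18.1 and 44.4 CPM, 2.45-fold higher, 2.18 to 2.76), CD68 (15.7 and 9.87 CPM, 1.59-fold lower), PECAM1 and SYP (both under 2 CPM), and their part in the chaperone ratios was not tested. The leukocyte marker CD3E, the endothelial marker CDH5 and the basal markers TP63 and KRT5 had 0 reads in both libraries. In bulk RNA, fewer cells of a type and less RNA per cell cannot be told apart.

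The promoters of several of these genes carry the sequence classes by which stress factors are known to act, and these are shown first. Promoter windows of 300 bases, from 250 bases before to 50 bases after a RefSeq transcription start (build GRCh38.p14), were at hand for 82 of the 97 genes. The heat shock element was searched on both strands as GAA, any 2 bases, TTC, any 2 bases and GAA, which contains its short forms GAANNTTC and TTCNNGAA. The full element occurred in 7 of the 82 genes (8.54%) and in 0.608% of all 27305 genes with such windows. The short forms occurred in 24.4% and 18.3% of the 82 genes and in 8.21% and 9.46% of all genes. In DNAJA1 the full element lay just after the start, and HSPA6 holds 1 as well. The stretches before the start of the other 5 genes are printed 5′ to 3′ on the strand of the gene, with the element in capitals.
HSP90AA1: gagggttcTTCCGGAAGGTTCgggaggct
HSP90AB1, distal: ggagcaggTTCTGGAAGATTCatgggctc
HSP90AB1, proximal: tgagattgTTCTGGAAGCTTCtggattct
HSPA8, distal: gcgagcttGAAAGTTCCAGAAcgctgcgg
HSPA8, proximal: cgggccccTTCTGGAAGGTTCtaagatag
HSPD1: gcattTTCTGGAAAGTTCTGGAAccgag
DNAJB6: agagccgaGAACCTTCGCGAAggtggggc
These stretches lie at chr14:102087112-102087140 on the minus strand for HSP90AA1, at chr6:44247770-44247798 and chr6:44247823-44247851 on the plus strand for HSP90AB1, and at chr11:123062346-123062374 and chr11:123062171-123062199 on the minus strand for HSPA8. Those of HSPD1 and DNAJB6 are chr2:197500063-197500090 on the minus strand and chr7:157336865-157336893 on the plus strand. In HSPD1, 2 overlapping matches form the capitals. The RNA of the 7 genes with the full element took different directions. HSP90AA1 and HSPA8 were higher in ENZR, HSP90AB1 and DNAJB6 lower, and HSPD1 was near a ratio of 1. DNAJA1 and HSPA6, which also hold the full element, were 1.37-fold and 1.44-fold higher. For HSPA6 the counting interval ran from 0.855 to 2.49. The elements are matches of letters in a fixed window, and binding of a factor was not measured.

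The heat-inducible genes HSPA1B, HSPB1 and DNAJB1 held only the short form, and were chosen for printing with their directions known.
HSPA1B: gaaacccctgGAATATTCccgacctggc
HSPB1: cttaacgagaGAAGGTTCcagatgaggg
DNAJB1: gcgggctctgGAAGCTTCcgccggacgg
The stretches are chr6:31827623-31827650 (plus strand), chr7:76302481-76302508 (plus strand) and chr19:14518427-14518454 (minus strand, the nearer of 2 matches before the start). HSPA1B was higher in ENZR, HSPB1 lower and DNAJB1 near 1. The heat-inducible genes HSPB8, DNAJB4 and HSPA4L, not printed, also held only a short form before the start. Their ratios were 4.22, 1.29 and 0.865. The ER stress element, searched on both strands as CCAAT, any 9 bases and CCACG, occurred in 2 of the 82 genes and in 0.0916% of all genes. Those 2 genes, HSPA5 and HSP90B1, encode the main HSP70 and HSP90 of the ER and had nearly the same ratio.
HSPA5: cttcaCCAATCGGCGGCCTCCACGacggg
HSP90B1, distal: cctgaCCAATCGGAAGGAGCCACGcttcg
HSP90B1, proximal: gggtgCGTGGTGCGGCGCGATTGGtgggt
The stretches are chr9:125241386-125241414 (minus strand), chr12:103930211-103930239 and chr12:103930316-103930344 (both plus strand), and the proximal match of HSP90B1 reads on the opposite strand.

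Few chaperone genes were past 1.5-fold upward, and the share past it downward was near that of all genes. Fold calls used log2 ratios (ENZR over Con) computed with 1 CPM added to both values. By this measure 4 of the 81 genes were higher in ENZR by 1.5-fold or more, as were 13.6% of the 13803 genes of the whole table that averaged at least 1 CPM. Lower by 1.5-fold or more were 9 of 81, beside 12.9% of all genes. With the TMM scaling described below undone, this split of 4 and 9 became 7 and 5, beside 17.4% and 9.59% of all genes. CDC37, HSF2, HSPA12B and DNAJC25 then fell short of 1.5-fold. Past 2-fold were 3 higher genes (DNAJC6, HSPB8 and HSPA12A), beside 6.69% of all genes, and 3 lower ones (DNAJC1, HSPA2 and HSPE1-MOB4), beside 4.64%. Of these, HSPA2 (2.06 and 0.324 CPM) and HSPE1-MOB4 (2.06 and 0 CPM) averaged 1 CPM only through Con. DNAJC6 (0.833 and 5.54 CPM) did so only through ENZR. HSPE1-MOB4 also shares 94.5% of its 50-base windows with other genes. The remaining 68 genes lay within 1.5-fold in either direction. The counting interval excluded a ratio of 1 for 64 of 81 genes, beside 71.2% of all genes.

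Chaperones are abundant, and abundant genes had smaller ratios in these libraries. The median over both libraries was 85.4 CPM for the 81 genes and 30.7 CPM for all genes. Among genes averaging at least 50 CPM, 4 of 52 chaperone genes (7.69%) and 18.0% of all genes were past 1.5-fold in either direction. Past 1.5-fold upward were 0 of the 52, beside 5.04% of all genes. The median size of the log2 ratio, in either direction, was 0.31 for the 81 genes and 0.32 for all genes. At 50 CPM or more it was 0.26 for both, so the difference in size lay in the share of large ratios. With direction kept, the medians at 50 CPM or more were -0.18 for chaperone genes and -0.08 for all genes. On this TMM scale, 38 of the 52 (73.1%) and 58.5% of all genes were below 0.

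**Figure D1:**
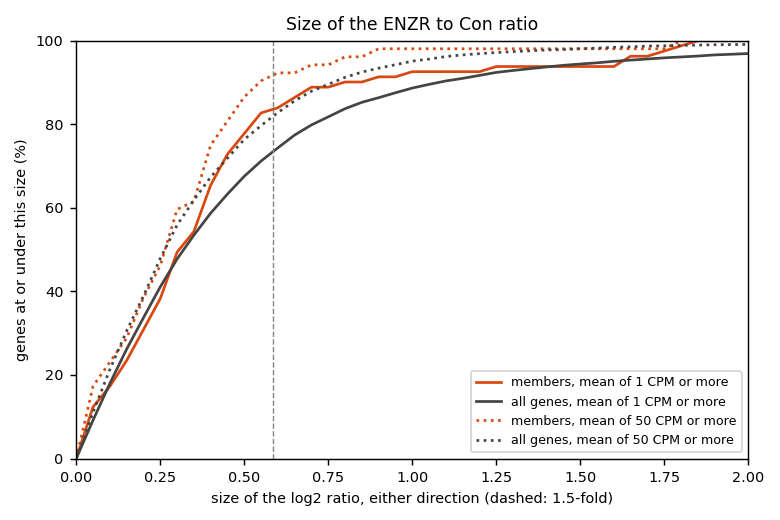
Cumulative share of genes (vertical axis, percent) by the size of the log2 ratio in either direction (horizontal axis), for chaperone genes and all genes at 2 levels of mean expression. Past the dashed line at 1.5-fold lie 7.69% of chaperone genes and 18.0% of all genes averaging at least 50 CPM, while the curves run close together at small ratios.

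The sign of the group median depends on the scaling, but that median lay below the median of all genes with the TMM scaling and without it. The deposited TMM scaling (trimmed mean of M-values) sets the bulk of genes to equal levels. With it, 50 of 81 genes (61.7%) were below 0, beside 50.5% of all genes. The median log2 ratio was -0.09 beside -0.01 for all genes. With the TMM scaling undone the median of all genes was 0.10 and that of the chaperone genes 0.03. Below 0 were then 39 of 81 chaperone genes (48.1%), beside 40.7% of all genes. The 11 genes that changed sign were CCT3, DNAJA3, DNAJB1, DNAJC2, DNAJC8, DNAJC9, DNAJC19, DNAJC22, HSPA13, HSPD1 and PTGES3, whose log2 ratios lay between -0.10 and 0. All chaperone genes together took 2.39% of the Con reads (exact binomial interval 2.38 to 2.39) and 2.64% of the ENZR reads (2.64 to 2.65). On the TMM scale they summed to 24569 (Con) and 25106 CPM (ENZR), 1.02 times as much. Without HSP90AA1, HSP90AB1 and HSPA8 the sums were 15870 and 14765 CPM, 0.930 times as much, so the slightly higher total rested on the most abundant genes. On the same scale, all genes averaging at least 1 CPM together summed to 0.921 times as much in ENZR.

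**Figure D2:**
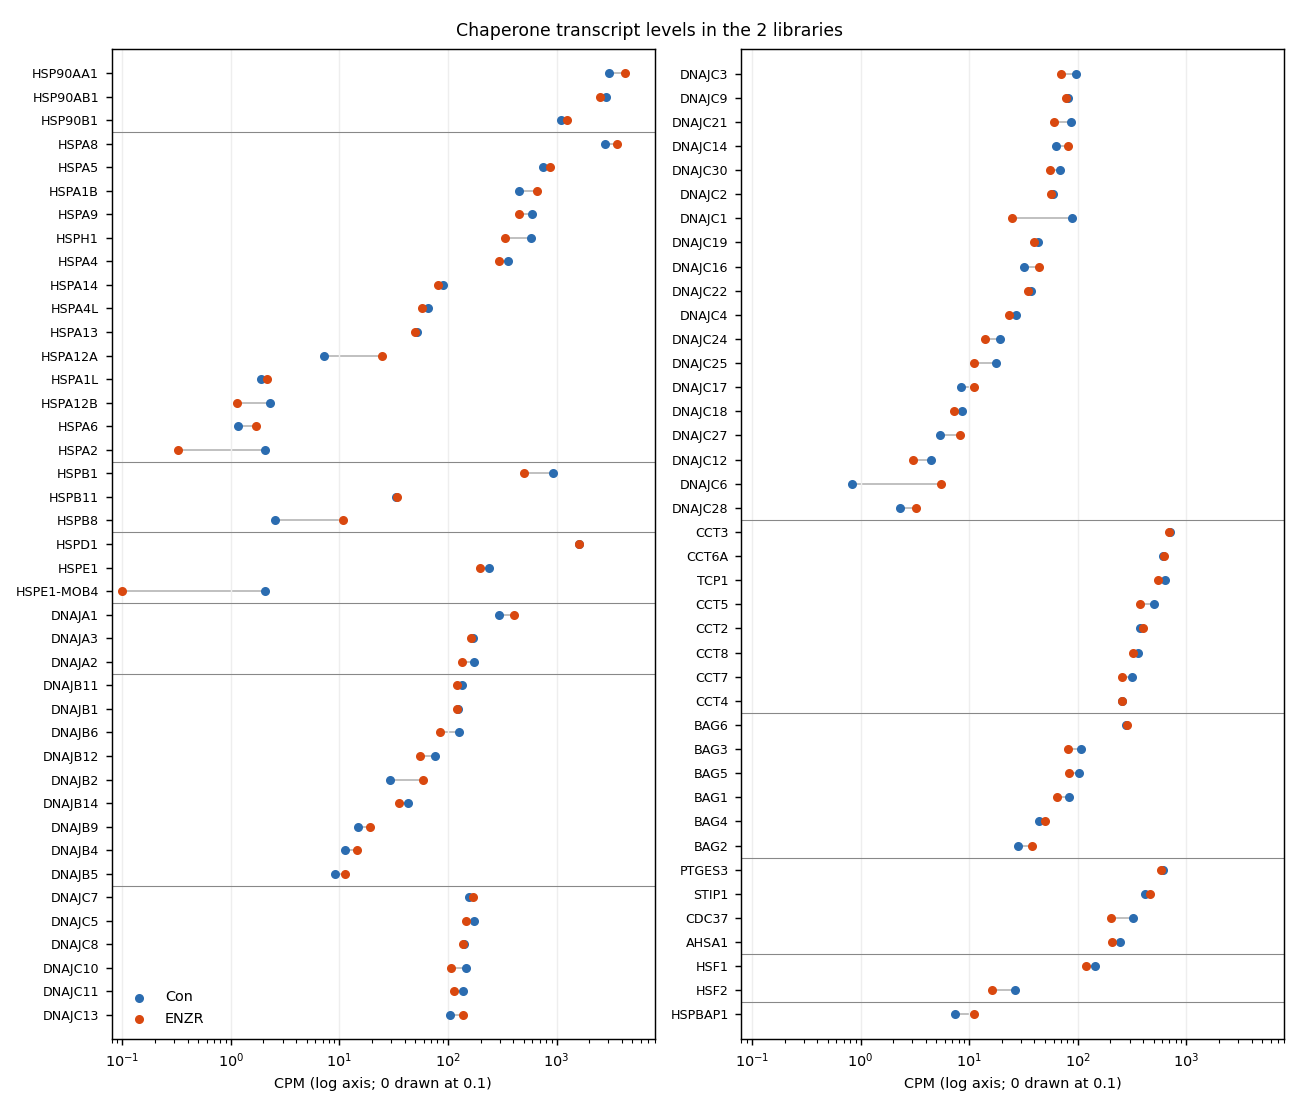
Level of each of the 81 chaperone genes in CPM on a log axis, with Con in blue and ENZR in orange, 1 library each and no error bar; a level of 0 is drawn at 0.1. Horizontal rules separate the families, and most pairs lie close together apart from DNAJC1, DNAJC6, HSPA12A, HSPA2, HSPB8 and HSPE1-MOB4.

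HSP90 is the ATP-driven dimer that holds steroid receptors and kinases in a ready state. HSP90AA1, the stress-inducible cytosolic form, was measured at 3060 (Con) and 4226 CPM (ENZR), 1.38-fold higher (counting interval 1.37 to 1.39). HSP90AB1, the constitutive cytosolic form, was at 2841 and 2490.3 CPM, 1.14-fold lower (1.13 to 1.15). The balance of the pair therefore differed more than either gene, from 1.08 reads of HSP90AA1 per read of HSP90AB1 in Con to 1.70 in ENZR, a change of 1.58-fold (1.55 to 1.60). Their sum was 1.14-fold higher (1.13 to 1.15). The 20 nearest measured genes had a median log2 ratio of 0.09 for HSP90AA1 and -0.26 for HSP90AB1, and their part was not tested. HSP90B1, the ER form, was at 1095 and 1251 CPM, 1.14-fold higher (1.12 to 1.16). The pseudogene rows HSP90AB4P and HSP90B2P had at most 20 reads in a library.

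Of the 4 HSP90 co-chaperones chosen by symbol, 1 was above 0 and 3 below. STIP1, which joins HSP70 to HSP90, was measured at 417 (Con) and 462 CPM (ENZR), 1.11-fold higher (1.08 to 1.14). AHSA1, which speeds up the HSP90 ATPase, was at 243 and 208 CPM, 1.17-fold lower (1.12 to 1.21). PTGES3, the p23 protein that stabilizes HSP90 bound to receptors, was at 611 and 591 CPM, a ratio of 0.967 (0.944 to 0.991) that lay above 1 with the TMM scaling undone. CDC37 was the one past 1.5-fold, a call lost with the TMM scaling undone (log2 ratio -0.58). This adaptor brings kinases to HSP90 and was measured at 326 (Con) and 202 CPM (ENZR), 1.62-fold lower (1.56 to 1.68). CDC37 lies on chromosome 19, whose 986 measured genes had a median log2 ratio of -0.22, against -0.69 for CDC37.

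HSP70 proteins bind short exposed stretches of unfolded clients, and the related HSP110 proteins release their nucleotide. HSPA8, the constitutive HSC70, was measured at 2798 (Con) and 3624 CPM (ENZR), 1.30-fold higher (1.28 to 1.31). The heat-inducible HSPA1B was at 451 and 658 CPM, 1.46-fold higher, a log2 ratio of 0.54. Its twin HSPA1A had 17 Con reads and 0 ENZR reads, but 72.6% of the 50-base windows of its transcript occur in HSPA1B too, so the split between the 2 genes is uncertain. Summed, HSPA1A and HSPA1B were 1.46-fold higher (1.42 to 1.49). Both main HSP70s of the cytosol were thus higher in ENZR.

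The HSP110 nucleotide exchange factors went the other way. HSPH1, the heat-inducible HSP110, was measured at 580.1 (Con) and 336 CPM (ENZR), 1.72-fold lower (1.68 to 1.77). HSPA4, a constitutive HSP110, was at 354 and 296 CPM, 1.19-fold lower (1.16 to 1.23). Reads of HSPA8 per read of HSPH1 accordingly differed from 4.82 in Con to 10.8 in ENZR, a change of 2.23-fold (2.17 to 2.30), and per read of HSPA4 from 7.91 to 12.2. HSPH1 lies on chromosome 13, where 82.8% of 239 measured genes were below 0 and the median was -0.54. Of the 20 measured genes nearest to HSPH1, 19 were below 0 with a median of -0.58, against -0.78 for HSPH1 itself, and the part of its chromosome in this value was not tested.

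The organelle HSP70s took opposite directions. HSPA5, the ER form known as BiP, was measured at 752 (Con) and 869 CPM (ENZR), 1.16-fold higher (1.13 to 1.18). HSPA9, the mitochondrial form known as mortalin, was at 592 and 451 CPM, 1.31-fold lower (1.28 to 1.35). Divergent or low members had the extreme ratios of the family. HSPA12A, a distant HSP70 relative, was at 7.25 and 24.9 CPM, 3.43-fold higher (2.86 to 4.13). HSPA12B was at 2.30 and 1.13 CPM, 2.03-fold lower (1.25 to 3.37), on 47 and 28 reads. The remaining HSP70 relatives HSPA4L, HSPA13 and HSPA14 were within 1.16-fold. HSPA2, a form known from male germ cells, had 42 Con reads and 8 ENZR reads, 6.36-fold lower (2.95 to 15.7). Of the 14 HSP70 and HSP110 genes at 1 CPM or more, 6 were above 0 and 8 below.

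**Figure D3:**
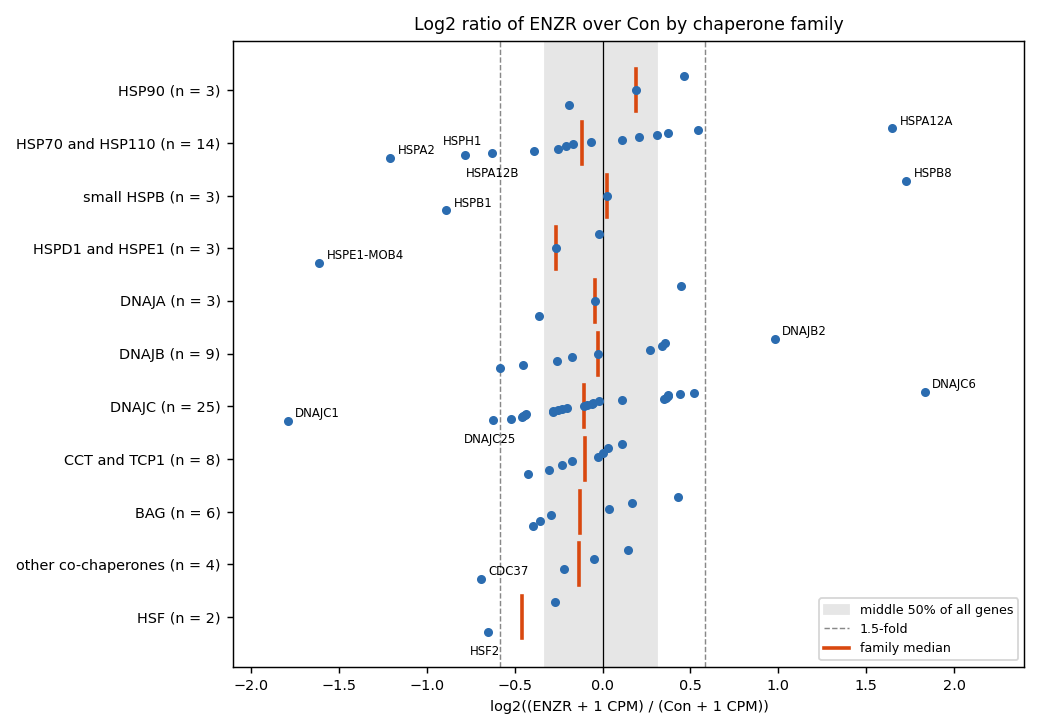
Log2 ratio of ENZR over Con (horizontal axis, after adding 1 CPM) for the 80 chaperone genes with a family, 1 point per gene; points within a family are spread vertically only to separate them. The grey band holds the middle 50% of all genes, the dashed lines mark 1.5-fold and the orange bars mark family medians, most of which lie inside the band.

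Small heat shock proteins hold unfolded proteins without ATP. HSPB1 (HSP27) was measured at 935 (Con) and 504 CPM (ENZR), 1.85-fold lower (1.81 to 1.90), and among the chaperone genes averaging at least 50 CPM only DNAJC1 had a lower log2 ratio. HSPB8 (HSP22), the partner of BAG3 in selective autophagy, was at 2.55 and 10.8 CPM, 4.22-fold higher (3.13 to 5.80). HSPB11, which carries the family name but belongs to the intraflagellar transport machinery, was at 33.5 and 34.0 CPM. The other 6 small heat shock protein rows lay below 1 CPM. HSPB7 had 0 Con reads and 11 ENZR reads and was higher by at least 3.03-fold if 3 reads are taken as the floor (the counting interval starts at 2.07), and HSPB6 had 16 and 5 reads. HSPBAP1, a protein that associates with HSPB1, was at 7.40 and 11.2 CPM, 1.51-fold higher (1.24 to 1.86), but under 1.5-fold once 1 CPM was added.

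BAG proteins are nucleotide exchange factors that steer HSP70 clients to different fates. BAG1, which links HSP70 to the proteasome and binds steroid receptors, was measured at 82.6 (Con) and 64.2 CPM (ENZR), 1.29-fold lower (1.20 to 1.38). BAG2, an inhibitor of the ubiquitin ligase STUB1, was at 28.1 and 38.3 CPM, 1.36-fold higher (1.23 to 1.51). BAG3, the heat-inducible member, was at 107 and 80.9 CPM, 1.32-fold lower (1.24 to 1.40), in contrast to its partner HSPB8. All 6 BAG genes were within 1.5-fold, 3 above 0 and 3 below.

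J-domain proteins deliver clients to HSP70 and stimulate its ATPase. Among the A class, DNAJA1 was measured at 296 (Con) and 404 CPM (ENZR), 1.37-fold higher (1.32 to 1.41). DNAJA2, a close relative with overlapping clients, was at 172 and 134 CPM, 1.29-fold lower (1.23 to 1.35). The ratio of DNAJA1 to DNAJA2 reads thus differed from 1.72 to 3.02, a change of 1.76-fold (1.66 to 1.86), the same kind of opposed pair as the cytosolic HSP90 genes. DNAJA3, the mitochondrial member, was at 169 and 164 CPM, and DNAJA4 had 1 read and 10 reads.

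Among the B class, DNAJB2 had the largest ratio. This protein, known from neurons, was measured at 29.4 (Con) and 59.1 CPM (ENZR), 2.01-fold higher (1.82 to 2.21). DNAJB1, the main heat-inducible HSP40, was at 124 and 122 CPM, a ratio of 0.983 (0.933 to 1.04). DNAJB6, which suppresses aggregation of polyglutamine proteins, was at 127 and 84.8 CPM, a log2 ratio of -0.58 that fell just short of 1.5-fold. DNAJB9, an ER protein induced by unfolded proteins, was at 14.8 and 19.2 CPM, 1.30-fold higher, a log2 ratio of 0.35. Of 9 B-class genes at 1 CPM or more, 4 were above 0 and 5 below.

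The C class is the most varied, with 25 of 26 genes at 1 CPM or more, of which 8 were above 0 and 17 below. Its median of -0.10 crossed to 0.01 with the TMM scaling undone. DNAJC1, an ER membrane protein that binds BiP, was measured at 88.0 (Con) and 24.7 CPM (ENZR), 3.56-fold lower (3.24 to 3.90), and the 20 nearest measured genes had a median log2 ratio of -0.11. DNAJC6, auxilin 1, which uncoats clathrin vesicles and is known mainly from neurons, was at 0.833 and 5.54 CPM, 6.65-fold higher (4.01 to 11.8), on 17 and 137 reads. On the log2 scale with 1 CPM added, these were the lowest and the highest of the 81 genes, an order that changes with a pseudocount of 0.5 or 5 CPM. DNAJC25 was at 17.5 and 11.04 CPM, 1.59-fold lower (1.35 to 1.87), and shares 14.0% of its 50-base windows with the read-through gene DNAJC25-GNG10. DNAJC3, an ER partner of BiP, was at 95.9 and 70.3 CPM, 1.36-fold lower (1.28 to 1.46). DNAJC3 lies on chromosome 13 too, and its 20 nearest measured genes had a median of -0.55 against -0.44 for DNAJC3. Of the C-class genes within 1.5-fold, DNAJC10, an ER reductase that breaks wrong disulfide bonds, was at 146 and 106 CPM, 1.38-fold lower (1.31 to 1.45). DNAJC13, an endosomal protein, was at 105 and 137 CPM, 1.30-fold higher. The 1 C-class gene below 1 CPM, DNAJC15, had 0 reads in both libraries.

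The mitochondrial chaperonin is a barrel of HSPD1 (HSP60) closed by a lid of HSPE1 (HSP10), and the 2 genes share a bidirectional promoter. HSPD1 was measured at 1625 (Con) and 1600.1 CPM (ENZR), at a ratio of 0.985 (0.970 to 0.999) that lay above 1 with the TMM scaling undone. HSPE1 was at 237 and 197 CPM, 1.20-fold lower (1.16 to 1.25). The read-through row HSPE1-MOB4 had 42 Con reads and 0 ENZR reads and was lower by at least 17.0-fold on the same floor of 3 reads (the counting interval starts at 13.2). Of its 50-base windows, 94.5% occur in other genes, so this row depends on how shared reads were assigned, and adding it to HSPE1 left that gene 1.21-fold lower.

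Each ring of the cytosolic chaperonin is built from 8 different subunits, 1 of each. Its 8 genes kept close together, with log2 ratios from -0.43 to 0.11 and a sum 1.08-fold lower (1.07 to 1.09). That sum had a ratio of 0.923, beside 0.921 for the sum of all genes averaging at least 1 CPM. None of the 8 was past 1.5-fold, 3 were above 0 and 5 below. Their median of -0.10 became 0.02 with the TMM scaling undone. TCP1 (subunit alpha) was measured at 636 (Con) and 543 CPM (ENZR), 1.17-fold lower (1.14 to 1.20). CCT5 (epsilon) was lowest, at 503 and 374 CPM, 1.34-fold lower (1.31 to 1.38), and CCT7 (eta) was 1.24-fold lower (1.19 to 1.28). CCT2 (beta) was highest, at 374 and 403 CPM, 1.08-fold higher (1.05 to 1.11). CCT3 (gamma), CCT4 (delta) and CCT6A (zeta) lay between these, at 701, 253 and 608 CPM in Con and 690.2, 254 and 622 CPM in ENZR. The ratio of CCT5 to CCT2 reads differed 1.45-fold (1.39 to 1.51) although both encode subunits of the same ring. CCT5 lies on chromosome 5, and its 20 nearest measured genes had a median of -0.55.

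Heat shock factors bind the elements shown above. HSF1, the main stress-activated factor, was measured at 144 (Con) and 119 CPM (ENZR), 1.21-fold lower (1.15 to 1.27). HSF2, which is known from development and forms mixed trimers with HSF1, was at 26.3 and 16.3 CPM, 1.61-fold lower (1.41 to 1.83). Both factors were thus lower at the RNA level, while activity of HSF1 is known to be set after translation and was not measured. Among 7 measured relatives and regulators outside the symbol rule, 0 were past 1.5-fold upward and 2 downward, beside 13.6% and 12.9% of all genes. With the TMM scaling undone, 1 of the 2 was left. The 2 were HSF4, at 26.3 and 16.4 CPM, 1.61-fold lower (1.41 to 1.83), and HSBP1, a small protein that binds HSF1, at 131 and 74.8 CPM, 1.75-fold lower (1.65 to 1.86).

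The 17 measured heat-shock-induced chaperones did not share a direction. The list also holds HSPA8 and HSP90AB1, called constitutive above. Of the 17, 8 were above 0 and 9 below, and past 1.5-fold were HSPB8 upward and HSPB1 and HSPH1 downward. The median of the 17 was -0.02, which became 0.10 with the TMM scaling undone. HSP90AA1, HSPA8, HSPA1B and DNAJA1 were between 1.30-fold and 1.46-fold higher, HSPB1, HSPH1 and BAG3 were between 1.32-fold and 1.85-fold lower, and HSP90AB1, AHSA1 and DNAJB1 had ratios of 0.877, 0.857 and 0.983. Of 13 heat-shock-induced genes outside the symbol rule, 10 were above 0 and 3 below, with a median of 0.24. Below 0 were 50.5% of all genes. Past 1.5-fold were 1 upward and 1 downward, beside 13.6% and 12.9% of all genes. These counts became 4 and 1 with the TMM scaling undone, beside 17.4% and 9.59%. HMOX1, heme oxygenase 1, was measured at 10.6 (Con) and 19.3 CPM (ENZR), 1.81-fold higher (1.54 to 2.14), and SERPINH1, the collagen chaperone HSP47, at 7.20 and 1.58 CPM, 4.57-fold lower (3.19 to 6.68).

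**Figure D4:**
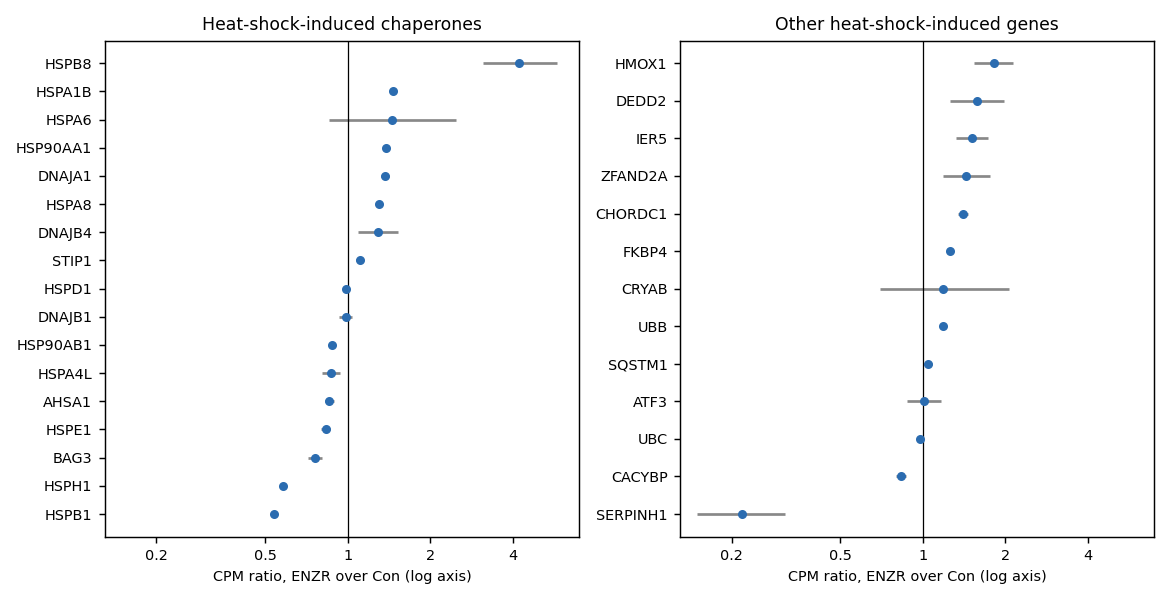
CPM ratio of ENZR over Con (log axis) for 17 heat-shock-induced chaperone genes (left) and 13 other heat-shock-induced genes (right), with bars for the exact 95% counting interval. Points fall on both sides of 1 in the left panel, from HSPB1 at the bottom to HSPB8 at the top, and 10 of 13 lie above 1 in the right panel.

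The 11 measured genes of the steroid receptor relay all lay within 1.5-fold, with 5 above 0, 6 below and a median of -0.02 that became 0.09 with the TMM scaling undone, when 1 gene, HSPA1B, was past 1.5-fold upward (log2 ratio 0.66). Their summed level was 1.17-fold higher in ENZR, carried by HSP90AA1 and HSPA8. Of 21 HSP90 co-chaperones outside the symbol rule, 1 was past 1.5-fold upward and 5 downward, beside 13.6% and 12.9% of all genes. These counts became 2 and 2 with the TMM scaling undone, beside 17.4% and 9.59%. FKBP5, an immunophilin that androgens induce, was measured at 215 (Con) and 82.7 CPM (ENZR), 2.60-fold lower (2.47 to 2.74). FKBP4, the related immunophilin that promotes receptor activity, was at 636 and 797 CPM, 1.25-fold higher (1.23 to 1.28). FNIP2, which slows the HSP90 ATPase, was 2.12-fold lower (1.89 to 2.39), and CDC37L1, a relative of CDC37, was 1.61-fold higher (1.42 to 1.83) where CDC37 was lower.

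Of 9 partners of HSP70 outside the rule, 0 were past 1.5-fold upward and 3 downward, beside 13.6% and 12.9% of all genes. With the TMM scaling undone, 1 of the 3 was left, beside 9.59% of all genes. STUB1 (CHIP), the ubiquitin ligase that tags HSP70 and HSP90 clients, was measured at 219 (Con) and 124 CPM (ENZR), 1.77-fold lower (1.69 to 1.85). HSPBP1, an exchange factor for HSP70, was 1.52-fold lower (1.39 to 1.66). Among 14 partners of the cytosolic chaperonin, none was past 1.5-fold (1 upward with the TMM scaling undone). Of the 14, 3 were above 0 and 11 below, with a median of -0.28 that was -0.17 with the TMM scaling undone. Of all genes, 50.5% were below 0, and 40.7% with the TMM scaling undone.

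Of 8 ER chaperone genes, HSPA5, HSP90B1 and DNAJB9 were above 0 and 5 below, with DNAJC1 alone past 1.5-fold. The median of these 8 genes was -0.12, which became -0.003 with the TMM scaling undone. HSPA5 reads per DNAJC1 read differed from 8.55 in Con to 35.1 in ENZR. Of 21 other ER folding genes, SERPINH1 and CANX alone were past 1.5-fold, both downward, beside 12.9% of all genes. Of the 21, 12 were above 0 and 9 below, with a median of 0.04. With the TMM scaling undone this median was 0.15, and 1 gene was past 1.5-fold upward. CALR, calreticulin, the soluble relative of CANX and the most abundant of these 21, was at 1401 and 996 CPM, 1.41-fold lower (1.38 to 1.43). CANX, calnexin, which retains unfolded glycoproteins, was measured at 805 (Con) and 426 CPM (ENZR), 1.89-fold lower (1.85 to 1.94).

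Of 8 mitochondrial chaperone genes, 7 were below 0 and DNAJC28 alone above, with a median of -0.19 that was -0.07 with the TMM scaling undone, when DNAJA3, DNAJC19 and HSPD1 lay above 0. Of 13 other mitochondrial folding genes, 10 were below 0, beside 50.5% of all genes. The median of the 13 was -0.27, and -0.15 with the TMM scaling undone. Past 1.5-fold were 0 of the 13 upward and 3 downward, beside 13.6% and 12.9% of all genes. LONP1, the matrix protease, was measured at 335 (Con) and 168 CPM (ENZR), 2.00-fold lower (1.92 to 2.07). AFG3L2, an inner membrane protease, was 1.86-fold lower (1.78 to 1.94), GRPEL2, an exchange factor of HSPA9, 1.79-fold lower (1.67 to 1.92), and TRAP1, the mitochondrial HSP90, 1.21-fold lower (1.17 to 1.25).

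Levels can be set against each other only per length. Per kilobase of the longest coding transcript, HSPA8 had rank 1 of the chaperone genes in both libraries, with 1136 (Con) and 1471 CPM per kilobase (ENZR). HSP90AB1 had rank 2 in Con (1062.5 CPM per kilobase) and rank 3 in ENZR (931), while HSP90AA1 had rank 4 (872) and rank 2 (1204). HSPB1 had rank 3 in Con (1029) and rank 5 in ENZR (554.97), and HSPD1 rank 5 (662) and rank 4 (652). By these lengths the cytosolic HSP90 genes exchanged places, and HSPB1 stood above HSPD1 in Con and below it in ENZR. The ranks rest on 1 annotated transcript per gene, of 3510 bases for HSP90AA1 and 2674 for HSP90AB1. Which transcripts the cells expressed was not measured. Without division by length, HSP90AA1 was above HSP90AB1 in Con already (3060 and 2841 CPM).

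Chromosomal position is given here because genes of chromosomes 5 and 13 were mostly lower in ENZR. So were, less markedly, those of chromosomes 19 (69.2% below 0), 9 (63.3%), 16 (63.1%) and 4 (61.1%), among others, but not of chromosome 1 (33.7%). On chromosome 4, the 20 nearest measured genes had medians of -0.57 for HSPA4L (log2 ratio -0.21) and -0.54 for DNAJB14 (-0.26). All 5 measured chaperone genes of chromosome 5 (CCT5, DNAJC18, DNAJC21, HSPA4 and HSPA9) were below 0, between -0.52 and -0.20, and 74.7% of the 577 measured genes of that chromosome were too, with a median of -0.32. Both measured chaperone genes of chromosome 13 were below 0. Against their 20 nearest measured genes, HSPA9 differed by -0.02, CCT5 by 0.12, HSPA4 by 0.15, DNAJC18 by 0.05 and DNAJC21 by -0.18. On chromosome 13, DNAJC3 differed by 0.11 and HSPH1 by -0.20. Elsewhere HSPB1 differed by -0.84, HSF2 by -0.79 and DNAJC1 by -1.68, but other genes there lay as near their neighbours. Such were HSP90AB1 (0.07), HSPA8 (0.07), DNAJA2 (-0.07) and DNAJB6 (-0.10). Without chromosomes 5 and 13, 43 of 74 chaperone genes were below 0 and the median was -0.05. All 7 chaperone genes left out were below 0, so leaving them out could only lower the share below 0. The share of all genes below 0 without these chromosomes was not computed. These 2 chromosomes were chosen after the values were seen, and copy number was not measured. The part of these chromosomes in the chaperone ratios was not tested.

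**Figure D5:**
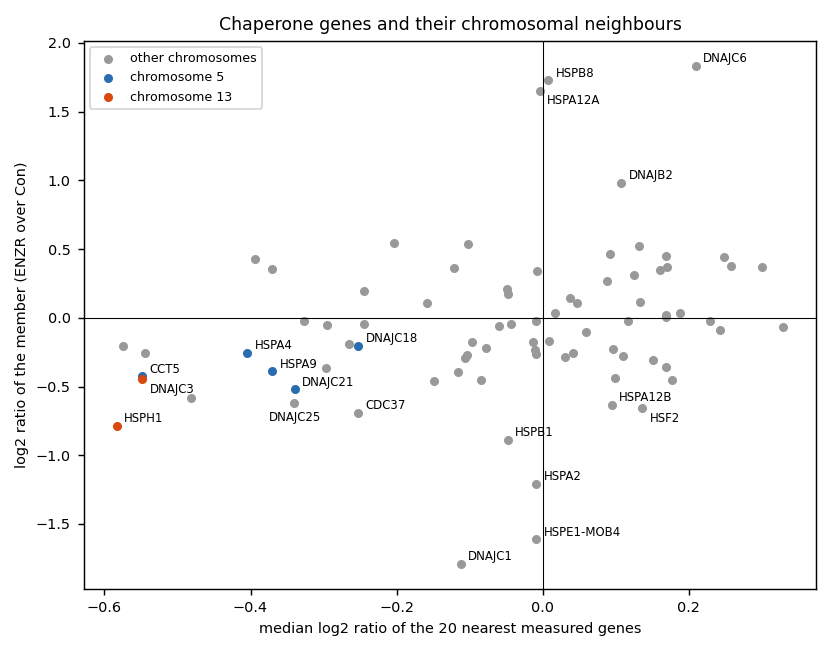
Log2 ratio of each chaperone gene (vertical axis) against the median log2 ratio of its 20 nearest measured genes (horizontal axis), with genes of chromosome 5 in blue and of chromosome 13 in orange. The 7 coloured genes lie in the lower left, while HSPB1, HSPA2 and DNAJC1 are low beside neighbours near 0.

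Of the 16 chaperone rows below 1 CPM, 5 had 0 reads in both libraries (DNAJB3, DNAJB8, DNAJC15, HSPB3 and HSPB2-C11orf52). The others had at most 20 reads in a library, too few to place a ratio closely. DNAJB13 had 0 Con reads and 8 ENZR reads, and DNAJB7 had 11 and 20. HSPA6, the strictly heat-inducible HSP70, stood just above the limit at 1.18 and 1.70 CPM, 1.44-fold higher with an interval from 0.855 to 2.49, and shares 45.5% of its 50-base windows with HSPA7. Many abundant chaperones have processed pseudogenes, with 26 named after HSPE1 and 17 each after HSPA8 and HSPD1 in GENCODE 29, and 7 of the 81 genes shared over 20% of their 50-base windows with another gene.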

How the data were processed

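Per the file headers and the labels, the deposited table held 1 signal value per gene and library, given by the authors as TMM-normalized CPM. Among the tools listed without roles, per the submitters' processing notes, were RSEM 1.2.15, Bowtie2 2.1.0 and edgeR, with build hg19. No source used here gives the annotation or the strand setting. All values were whole multiples of 1 step (within 0.01 reads), so reads were recovered as deposited values divided by 0.0490 CPM (Con) and 0.0404 CPM (ENZR). RSEM shares out multi-mapping reads, so these may be rounded estimates. Columns of other samples numbered 0.

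Genes averaging at least 1 CPM were kept, and log2 ratios used a pseudocount of 1 CPM. With 1 library per group no count test was possible. Intervals are exact binomial (Clopper-Pearson, scipy 1.17.1, 95%). The calculation was tested on simulated reads. Chromosomes and neighbours came from RefSeq (GRCh38.p14), matched by symbol, and shared 50-base windows from GENCODE 29 transcripts, neither being the authors' hg19 annotation.

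Genes and lists were chosen with earlier results of these data known. Named genes are all past 1.5-fold, 27 fixed genes, the 2 largest log2 ratios per family, and up to 3 per list outside the symbol rule. Other genes named (such as CCT2, HSPA6, HSPBAP1, DNAJC28 and the rows under 1 CPM), the read ratios between pairs and the sums were added after their values were seen, and so were settings of 10 and 50 CPM. Protein sequences were not used here. Results for some named genes are not reported here.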

Additional observations from a re-analysis of the deposited data

How the results depend on the processing

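No paired analysis was possible because each group has 1 library, and no library could be left out. With a pseudocount of 5 CPM, 4 genes were past 1.5-fold downward, beside 9.16% of all genes, and 1 past 2-fold. Averages of at least 5 CPM left 1 gene past 2-fold downward. With the TMM scaling undone, and likewise with the 10 most abundant genes left out, 7 genes were past 1.5-fold upward (17.4% of all genes under both settings) and 5 downward (9.59% and 9.68%), and the medians were 0.026 and 0.025, beside 0.10 for all genes. With genes averaging at least 10 CPM, chosen after seeing the data, 2 genes were past 1.5-fold upward, beside 9.64% of all genes, and past 2-fold were 1 upward and 1 downward. At 50 CPM the counts were 0 and 4 at 1.5-fold (5.04% and 12.98% of all genes) and 0 and 1 at 2-fold. Shares of all genes past 2-fold in each direction were computed for the main setting only. Stricter means test fewer genes by construction. Pseudocount 0.5 CPM, no filter, the median of ratios, upper quartile scaling and leaving out near-identical copies kept each of these counts within 1.5 times and the median between -0.10 and -0.02. The depth limits genes near 1 CPM, where 1 read is worth 0.0490 CPM in Con and 0.0404 CPM in ENZR.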
